A study of Mus musculus with 8 samples.

Results

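Heat shock proteins and chaperonins are described here in CD4-CD8- cells of the mouse thymus and spleen after exposure to the dioxin TCDD. The 69 genes were every gene of the array whose symbol starts with Hspa, Hspb, Hspd, Hspe, Hsph, Dnaja, Dnajb or Dnajc, or is Cct or Hsf followed by a digit, among 12394 genes measured in all. The rule uses symbols and no measured value, and where several probe sets stood for a gene the brightest on average was read. By class they were 12 members of the HSP70 and HSP110 families, 4 J-domain proteins of class A, 12 of class B and 22 of class C, 8 symbols of the cytosolic chaperonin CCT, 2 of the mitochondrial chaperonin, 6 small heat shock proteins, Hspbp1 and 2 heat shock factors. Dnajc19 was left out because its probe sets carry several gene symbols, and Hsf1 was not analysed here.

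The arrays fell into 4 groups of 2, which were emigrants from TCDD-treated mice, emigrants from oil-treated mice, thymocytes from TCDD-treated mice and thymocytes from oil-treated mice. All came from female C57BL/6 mice aged 6 to 8 weeks that received an intraperitoneal injection of TCDD (2,3,7,8-tetrachlorodibenzo-p-dioxin, which activates the aryl hydrocarbon receptor) at 10 µg/kg in corn oil, or of corn oil alone. FITC was put into the thymi 5 days later, and after another 24 h the CD4-CD8- cells of the thymus (thymocytes) and of the spleen (thymus emigrants) were sorted straight into TRIzol, in the series' design text as FITC+ cells. The comparisons address what exposure did to each population and how the emigrants differ from the cells in the thymus. A label of emigrants oil 2 names dioxane, though its title names corn oil. The Treatment fields of the TCDD arrays and of emigrants oil 1 give 10 nM, another unit than the injected dose. The title of the array emigrants oil 1 names corn oil whereas its Treatment field names TCDD, and the groups here follow the titles. Where the field moves an emigrant difference of at least 0.5 printed for a gene by over 1.5 times, its value with the field is given too. Whether replicate arrays stand for different animals or pools is not stated in the labels, so p-values here measure only the spread between arrays, which may be technical. With 2 arrays a group the precision is low. Fewer cells of a type and less RNA per cell cannot be told apart in such bulk samples.

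Chaperones bind unfolded protein and keep it from clumping until it has folded. HSP70 proteins hold short unfolded stretches in cycles of ATP binding and hydrolysis, J-domain proteins deliver the clients and start the hydrolysis, and HSP110 and other exchange factors release the nucleotide. The ring-shaped chaperonins enclose their clients, CCT in the cytosol (actin and tubulin are its best known clients) and HSP60 with HSP10 in the mitochondrion. Heat shock factors switch on many of these genes through the heat shock element, alternating GAA and TTC units in the promoter, and the unfolded protein response of the endoplasmic reticulum acts in part through the ER stress element. The aryl hydrocarbon receptor itself rests in the cytosol bound to HSP90.

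Promoters are shown for the members whose regulation is best known or whose values the text turns on, as 250 bases before the start in the RefSeq table of build GRCm38.p6. A promoter was found for 57 of the 69 members. Hspe1 lies at chr1:55087898-55088147 on the plus strand and Hspd1 (the more downstream of its 2 starts) at chr1:55087933-55088182 on the minus strand, so the same stretch is read from both sides. Hspa1a lies at chr17:34972157-34972406 and Hspa1b at chr17:34959239-34959488, both on the minus strand. Hspa5 lies at chr2:34771840-34772089, Dnajc3 at chr14:118937682-118937931 and Dnaja4 (the more downstream of its starts) at chr9:54699309-54699558, all on the plus strand, and Hsph1 at chr5:149636316-149636565 on the minus strand. Capitals mark 2 or more alternating heat shock units (GAANNTTC or TTCNNGAA, overlapping matches joined) and, in Hspa5 and Dnajc3, the ER stress element (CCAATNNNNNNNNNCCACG).
Hspe1: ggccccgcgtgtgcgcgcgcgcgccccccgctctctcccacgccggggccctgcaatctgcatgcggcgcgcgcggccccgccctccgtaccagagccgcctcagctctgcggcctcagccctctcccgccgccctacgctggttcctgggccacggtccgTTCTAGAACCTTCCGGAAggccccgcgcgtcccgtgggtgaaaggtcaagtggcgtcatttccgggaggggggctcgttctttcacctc
Hspd1: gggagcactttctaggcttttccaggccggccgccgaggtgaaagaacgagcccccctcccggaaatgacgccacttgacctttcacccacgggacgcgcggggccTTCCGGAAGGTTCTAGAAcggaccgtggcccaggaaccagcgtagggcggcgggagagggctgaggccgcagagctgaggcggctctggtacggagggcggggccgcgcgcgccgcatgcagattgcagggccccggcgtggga
Hspa1a: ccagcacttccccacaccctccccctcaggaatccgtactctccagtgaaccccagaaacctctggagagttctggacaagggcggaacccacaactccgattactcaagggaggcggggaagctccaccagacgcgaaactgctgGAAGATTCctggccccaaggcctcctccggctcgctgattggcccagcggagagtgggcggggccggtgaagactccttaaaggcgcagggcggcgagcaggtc
Hspa1b: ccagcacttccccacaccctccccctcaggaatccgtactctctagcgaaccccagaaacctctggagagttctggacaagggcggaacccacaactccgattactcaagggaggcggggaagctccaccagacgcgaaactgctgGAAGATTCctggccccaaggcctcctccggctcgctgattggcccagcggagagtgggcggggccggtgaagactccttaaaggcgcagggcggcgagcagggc
Hspa5: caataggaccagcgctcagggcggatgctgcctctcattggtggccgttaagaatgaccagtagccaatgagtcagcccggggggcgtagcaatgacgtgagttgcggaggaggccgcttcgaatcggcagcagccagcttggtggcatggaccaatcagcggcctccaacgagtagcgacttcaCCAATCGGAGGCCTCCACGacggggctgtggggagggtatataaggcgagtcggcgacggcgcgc
Dnajc3: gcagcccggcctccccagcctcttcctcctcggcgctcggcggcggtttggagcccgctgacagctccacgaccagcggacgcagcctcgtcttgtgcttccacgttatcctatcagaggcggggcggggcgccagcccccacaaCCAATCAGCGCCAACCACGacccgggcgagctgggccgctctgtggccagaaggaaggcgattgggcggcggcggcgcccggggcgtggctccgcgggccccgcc
Dnaja4: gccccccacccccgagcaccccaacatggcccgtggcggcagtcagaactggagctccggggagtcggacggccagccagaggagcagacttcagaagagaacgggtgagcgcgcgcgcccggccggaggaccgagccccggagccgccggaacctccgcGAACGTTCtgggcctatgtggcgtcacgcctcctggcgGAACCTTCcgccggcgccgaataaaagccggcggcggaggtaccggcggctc
Hsph1: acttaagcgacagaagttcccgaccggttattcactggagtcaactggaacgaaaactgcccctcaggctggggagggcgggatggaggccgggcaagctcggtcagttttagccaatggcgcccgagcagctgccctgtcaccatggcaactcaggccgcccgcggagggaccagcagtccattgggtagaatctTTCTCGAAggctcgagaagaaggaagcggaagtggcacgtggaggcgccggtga

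The starts of Hspe1 and Hspd1, the mitochondrial HSP10 and HSP60, are divergent, with 215 bases between them for the Hspd1 start shown, and a single run of alternating units is the match for both. The 250 bases before the other Hspd1 start hold no match. An element of 3 units (GAANNTTCNNGAA or TTCNNGAANNTTC) was found on either strand in 3 of the 57 members, Hspd1, Hspe1 and Dnajb6. This is 5.26%, against 0.514% of the 27025 genes in the promoter table. An element of 2 units was in 15 of 57 members (26.3%) and in 14.5% of all genes, and CCAAT in 40.4% and 37.5%. Hspa1a and Hspa1b, the stress-inducible HSP70 genes, matched at 247 of 250 aligned bases, differing at 3. The ER stress element, searched on both strands after the values had been seen, was in 2 of 57 members (3.51%) and in 0.130% of all genes. It contains CCAAT, so the 2 motifs overlap. A match describes the letters only and no binding was measured.

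The values are log2 levels after RMA, with array medians between 4.81 and 4.91. A level is compared only within a probe set, because probes differ in brightness. Of the members, 45 of 69 (65.2%) lay above the array median on all 8 arrays, as did 50.6% of all genes, and 13 members lay above it on none. Those 13 were Hspa12b, Hspa1a, Hspa1l, Dnajb3, Dnajb7, Dnajc5b, Dnajc17, Dnajc18, Cct6b, Hsf2, Hsf4, Hspb3 and Hspb8, and no difference of level is printed for a gene against a group whose 2 arrays lay below their medians. Among defining markers of double-negative thymocytes, 14 of 16 were measured, and their median level was 6.25 and 6.15 in emigrants TCDD and 6.57 and 7.12 in emigrants oil, against 8.71 and 8.67 in thymocytes TCDD and 8.58 and 8.66 in thymocytes oil. The markers of early T cells were thus dimmer in the cells labelled emigrants, where 11 of 14 had lower means with oil and 13 of 14 with TCDD. Log2 arrays hold no true 0, so no marker could be read as absent.

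No member passed the adjusted threshold of 0.05 in any comparison (limma, Benjamini-Hochberg over 12394 genes), and neither did any other gene, so the background is 0% in each of the 5 comparisons. At an unadjusted p under 0.05 the TCDD comparison in thymocytes held 2 members with higher and 2 with lower means (1.57% of all genes in either direction), and that in emigrants 1 and 1 (1.18%). The emigrants differed from the thymocytes at this level in 5 higher and 4 lower members with oil (9.57% of all genes) and in 1 higher and 4 lower with TCDD (8.25%). The difference between the TCDD responses of emigrants and thymocytes held 1 member (1.18%), Dnajb9. All values below are therefore descriptions, given with the spread between the arrays.

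Counts of members whose arrays did not overlap lay near the background in most directions. With TCDD in thymocytes, 6 members were higher without overlap (9.78% of all genes) and 8 lower (11.4%). With TCDD in emigrants, 8 were higher (14.6% of all genes) and 15 lower (10.1%), or 21.7% of the members lower. Emigrants against thymocytes gave 11 higher (19.8% of all genes) and 14 lower (19.6%) with oil, and 11 higher (22.1%) and 15 lower (15.5%) with TCDD. The members' median difference was -0.04 for TCDD minus oil in thymocytes and -0.08 in emigrants, and -0.04 and -0.01 for emigrants minus thymocytes with oil and with TCDD. The medians of all genes were -0.01, 0.03, 0.00 and 0.04 in the same order. The classes did not share a direction: CCT medians lay below 0 in all 4 comparisons, while class B J-domain proteins had a median of 0.27 in emigrants against thymocytes with oil.

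**Figure D1:**
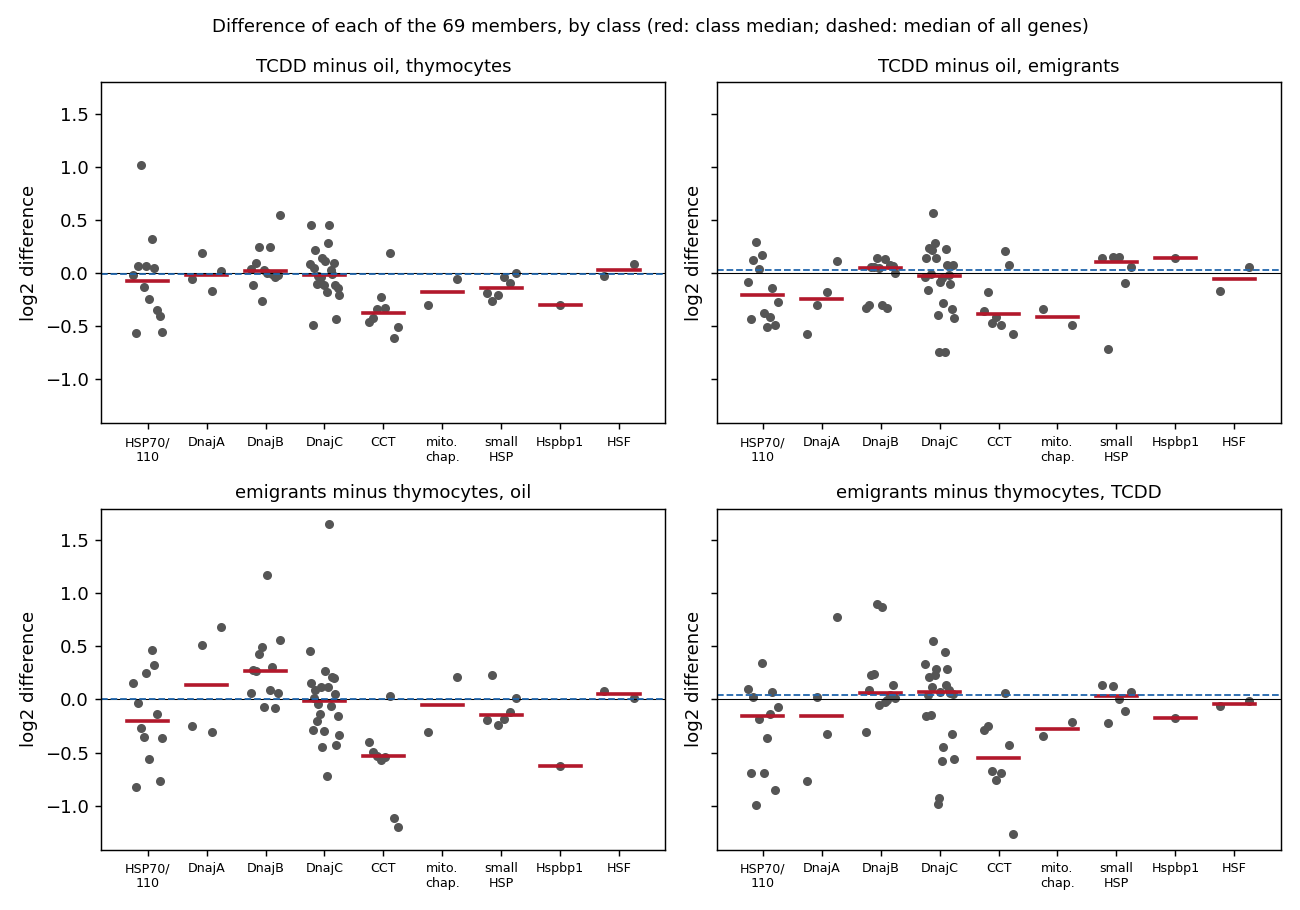
Log2 differences of the 69 members in 4 comparisons, 1 point per gene, by chaperone class; red bars are class medians and the dashed line is the median of all genes. The CCT points lie mostly below 0 in every panel, with Cct6b above 0 in each and Cct7 (0.07) with TCDD in emigrants, and single J-domain genes reach 1.65 (Dnajc3) in emigrants minus thymocytes with oil.

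The expressed CCT subunits had lower means with TCDD and in emigrants in nearly every comparison. CCT is built of 8 different subunits, of which the symbol rule takes Cct2 to Cct8, with Cct6b as a testis-enriched copy of Cct6a that was not above the array median on any array. The other 7 subunits, all above the median on all 8 arrays, had lower means in thymocytes with TCDD than with oil in 7 of 7 cases. In emigrants 6 of 7 were lower with TCDD. Emigrants were lower than thymocytes in 7 of 7 with oil and in 7 of 7 with TCDD. The median differences were -0.42 and -0.41 for TCDD minus oil in thymocytes and emigrants, and -0.54 and -0.67 for emigrants minus thymocytes with oil and TCDD. Without overlap, 4, 3, 5 and 6 of the 7 were lower in these comparisons, beside 11.4%, 10.1%, 19.6% and 15.5% of all genes. These comparisons share arrays, so they are not separate evidence.

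Cct5, the epsilon subunit, was 9.36 and 9.29 in emigrants TCDD and 9.77 and 9.71 in emigrants oil, against 10.38 and 9.78 in thymocytes TCDD and 10.26 and 10.36 in thymocytes oil. The emigrant arrays lay below the thymocyte arrays within each treatment, with differences of -0.76 (SE 0.21, adjusted p = 0.434) with TCDD and -0.57 (SE 0.21, adjusted p = 0.462) with oil. Cct7, the eta subunit, was 8.79 and 9.47 in emigrants oil and 10.54 and 9.94 in thymocytes oil. Its difference of -1.11 (SE 0.34, adjusted p = 0.363) had no overlap between the arrays, while its TCDD difference in emigrants was 0.07 (9.08 and 9.32 with TCDD). Cct6a, the zeta subunit, was 9.34 and 9.10 in emigrants TCDD and 10.10 and 9.73 in thymocytes TCDD. It differed by -0.70 (SE 0.25), with both emigrant arrays below both thymocyte arrays.

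Cct2 and Cct3, the beta and gamma subunits, gave the smallest p-values of the subunits for TCDD in thymocytes. Cct2 was 11.19 and 11.06 with TCDD and 11.53 and 11.65 with oil, a difference of -0.46 (SE 0.21). Cct3 was 11.02 and 11.00 with TCDD and 11.56 and 11.30 with oil, a difference of -0.42 (SE 0.22). Neither overlapped, and neither was under an unadjusted p of 0.05. Cct4, the delta subunit, was 9.48 and 9.40 in emigrants TCDD and 9.72 and 10.10 in emigrants oil, a difference of -0.47 with no overlap. Cct8, the theta subunit, was the most variable, at 7.24 and 9.05 on the emigrants oil arrays and 8.42 and 10.28 on the thymocytes oil arrays. Its TCDD differences of -0.58 in emigrants and -0.51 in thymocytes each turned sign without oil replicate 2 of that source, and that in emigrants was -1.59 with the Treatment field. Other probe sets of Cct2, Cct3 and Cct6a above the array medians had the signs of the chosen ones, except that a set of Cct3 gave 0.07 with TCDD in emigrants. A dimmer set of Cct4 (mean 6.59) had the opposite sign in thymocytes with TCDD (0.25) and in emigrants against thymocytes with oil (0.42). The second set of Cct7 (mean 7.50) gave -0.08 with TCDD in emigrants, where the chosen set gave 0.07.

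**Figure D2:**
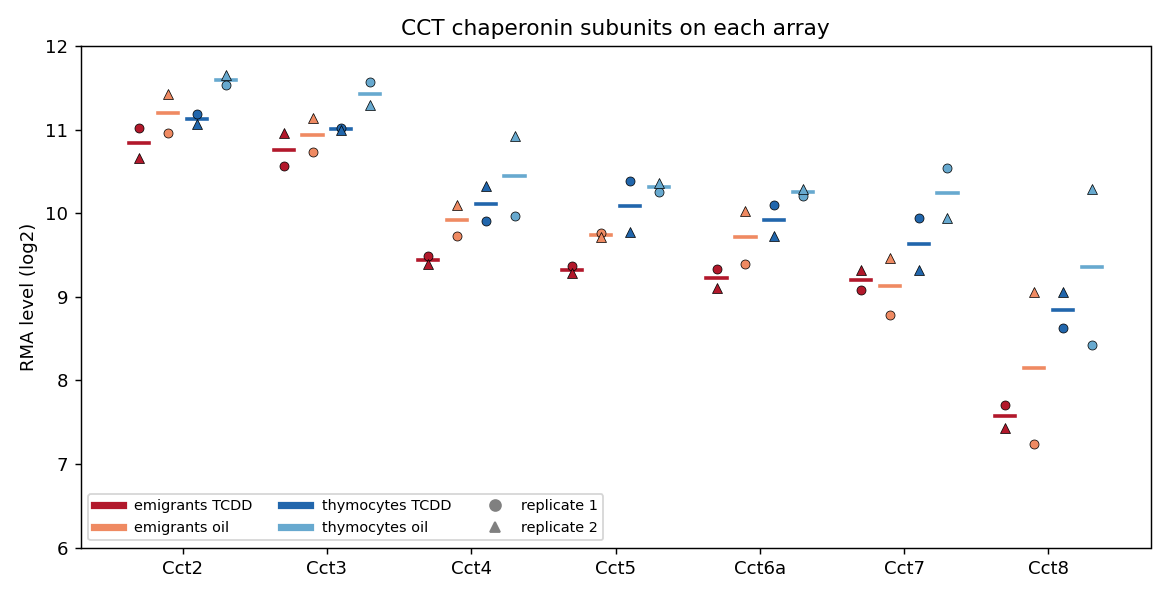
RMA log2 level of 7 CCT subunits on each array, with circles for replicate 1, triangles for replicate 2 and bars for the mean of the 2. Within each subunit the thymocytes oil arrays have the highest mean and the emigrants TCDD arrays the lowest or, for Cct7, close to the lowest; heights are not comparable between subunits.

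Single arrays set how large the CCT difference is. Between arrays of the same number, the median TCDD difference of the 7 subunits was -0.11 for replicate 1 and -0.59 for replicate 2 in thymocytes, and -0.06 and -0.71 in emigrants. In thymocytes replicate 1, Cct5 (10.38 with TCDD and 10.26 with oil) and Cct8 (8.63 and 8.42) were higher with TCDD. Leaving out emigrants oil replicate 2 changed the median TCDD difference in emigrants to -0.12, and leaving out emigrants oil replicate 1 changed the oil difference between emigrants and thymocytes to -0.30. In thymocytes, leaving out any of the 8 arrays in turn kept the TCDD median between -0.52 and -0.29. With the Treatment field of emigrants oil 1 in place of its title, the emigrant TCDD median was -0.54 and the oil median between sources -0.30. Tcp1, the alpha subunit, falls outside the symbol rule and was 10.55 and 10.46 in thymocytes TCDD and 10.75 and 11.55 in thymocytes oil, a difference of -0.64 (SE 0.34), and -0.24 without thymocytes oil replicate 2. It was 9.93 and 10.44 in emigrants oil, a difference of -0.97 from thymocytes oil (SE 0.34), and -0.57 without that array.

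Proliferation genes had the same direction as CCT. With TCDD in thymocytes, 14 of 15 had lower means (median -0.41), 6 of them without overlap (11.4% of all genes). Their median level was 9.20 and 8.37 in thymocytes TCDD and 9.53 and 8.68 in thymocytes oil. In emigrants against thymocytes, 15 of 15 were lower with oil (median -0.95) and 14 of 15 with TCDD (median -0.92), and the median level was 8.34 and 7.65 in emigrants TCDD and 7.86 and 8.65 in emigrants oil. With TCDD in emigrants, 11 of 15 were lower (median -0.07) and 0 without overlap. Their part in the CCT values was not tested.

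Among the HSP70 genes, the inducible Hspa1b had the largest TCDD difference of any member. It was 5.86 and 6.20 in thymocytes TCDD, against 4.70 and 5.34 in thymocytes oil, where replicate 1 lay below its array median. The difference was 1.01 (SE 0.33, 2.02-fold, adjusted p = 1.00), with no overlap. In emigrants it was 5.41 and 4.68 with TCDD and 4.94 and 4.57 with oil, and these arrays overlapped. The difference between emigrants and thymocytes with TCDD was -0.99 (SE 0.33, adjusted p = 0.513). The value without emigrants TCDD replicate 2 was -0.62. Hspa1a, whose upstream sequence is nearly the same, was between 3.72 and 4.11 on all 8 arrays, none above the median. The genes are near-identical copies, so probes for either may read both.

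Hsph1, the HSP110 exchange factor, and Hspa8, the constitutive HSP70, were lower in thymocytes with TCDD. Hsph1 was 9.19 and 9.19 with TCDD and 9.71 and 9.79 with oil, a difference of -0.56 (SE 0.16, adjusted p = 1.00). The arrays of each group lay close together and the groups did not overlap. In emigrants Hsph1 was 9.26 and 8.99 with TCDD and 9.48 and 9.31 with oil, a difference of -0.27 (SE 0.16). Hspa8 was 11.57 and 11.27 in thymocytes TCDD and 11.70 and 11.84 in thymocytes oil, a difference of -0.35 (SE 0.18). Its next 2 probe sets by brightness gave -0.44 and -0.59. Hspa1b and Hsph1 both hold a 2-unit heat shock element in the sequences above and lay in opposite directions with TCDD in thymocytes. The part of the element in these values was not tested.

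Hspa9, the mitochondrial HSP70 (mortalin), had lower means in all 4 comparisons, from -0.40 for TCDD in thymocytes to -0.85 for emigrants against thymocytes with TCDD. It was 7.81 and 7.19 in emigrants TCDD and 7.48 and 8.49 in emigrants oil, against 8.66 and 8.04 in thymocytes TCDD and 9.06 and 8.45 in thymocytes oil. Of the groups compared, emigrants TCDD and thymocytes TCDD did not overlap (SE of the difference 0.43), and the others did. With the Treatment field emigrants TCDD and emigrants oil did not overlap either. The next probe set by brightness gave -0.85 for emigrants against thymocytes with TCDD as well. Hspa14, which works at the ribosome, was 7.51 and 8.30 in emigrants oil and 8.36 and 9.11 in thymocytes oil, a difference of -0.83 (SE 0.36). Without emigrants oil replicate 1, or with its Treatment field, it was -0.43. Hspa4, an HSP110-type exchange factor, was 9.90 and 8.46 on the thymocytes oil arrays alone, and its difference of -0.56 from emigrants oil became 0.16 without thymocytes oil replicate 1. Hspa2, known from the testis, was 5.15 and 5.02 in emigrants TCDD and 4.61 and 4.88 in thymocytes TCDD, without overlap (difference 0.35, SE 0.21). The class as a whole had 5 higher and 7 lower members with TCDD in thymocytes and 4 higher and 8 lower in each of the other 3 comparisons.

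J-domain proteins of class B mostly had higher means in emigrants with oil. There this held for 10 of 12, 5 of them without overlap, against 19.8% of all genes. With TCDD 8 of 12 were higher, 4 without overlap (22.1% of all genes), and the class median was 0.06, beside 0.04 for all genes. The class B median of 0.27 with oil became 0.05 without thymocytes oil replicate 1. Dnaja4, a class A protein with 2 heat shock matches in the promoter printed above, was 6.13 and 6.01 in emigrants TCDD and 6.11 and 5.79 in emigrants oil, against 5.22 and 5.36 in thymocytes TCDD and 5.11 and 5.44 in thymocytes oil. Every emigrant array lay above every thymocyte array. The differences were 0.78 (SE 0.19, adjusted p = 0.378) with TCDD and 0.68 (SE 0.19, adjusted p = 0.319) with oil, while TCDD minus oil was 0.12 in emigrants and 0.02 in thymocytes.

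Dnajb4, a class B partner of HSP70, was 7.91 and 7.05 in emigrants TCDD and 7.22 and 8.35 in emigrants oil, against 6.53 and 6.70 in thymocytes TCDD and 6.34 and 6.88 in thymocytes oil. Here too all emigrant arrays were above all thymocyte arrays, though the emigrants differed among themselves by over 1 log2 unit. The difference with oil was 1.18 (SE 0.45, adjusted p = 0.470), and 0.61 without emigrants oil replicate 2. With TCDD it was 0.87 (SE 0.45), and 0.44 without emigrants TCDD replicate 1. Dnajb2, a J-domain protein that also binds ubiquitin, was 6.45 and 6.11 in emigrants TCDD and 4.91 and 5.85 in thymocytes TCDD. Its difference of 0.90 (SE 0.39) was 0.43 without thymocytes TCDD replicate 1. Dnajb13, a protein of sperm and ciliary axonemes, was 4.93 and 4.85 in emigrants oil and 4.30 and 4.63 in thymocytes oil, where both arrays lay below their medians. Dnajb1, the main stress-inducible J-domain partner of HSP70, was 8.77 and 10.10 on the thymocytes oil arrays and had overlapping groups in all 4 comparisons.

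Immediate early genes, which can respond to handling, were higher in emigrants than in thymocytes in 13 of 15 cases with oil (median 0.61, 6 without overlap beside 19.8% of all genes) and in 14 of 15 with TCDD (median 0.94, 12 without overlap beside 22.1%). Their median level was 6.27 and 7.14 in emigrants TCDD and 6.18 and 6.69 in emigrants oil, against 5.58 and 5.96 in thymocytes TCDD and 5.49 and 5.98 in thymocytes oil. Macrophage markers had higher means in emigrants in 8 of 8 cases with each treatment, with medians of 0.43 with oil and 0.77 with TCDD. Of these, 3 with oil (19.8% of all genes) and 2 with TCDD (22.1%) were without overlap. Their median level was 5.42 and 6.81 in emigrants TCDD and 5.28 and 6.72 in emigrants oil. In thymocytes it was 5.30 and 5.53 with TCDD and 5.38 and 5.62 with oil. Only replicate 2 of each emigrant group thus stood above all thymocyte arrays. B cell markers had lower means in emigrants in 6 of 8 cases with oil, 4 without overlap (19.6% of all genes). With TCDD 4 of 8 were lower, 3 without overlap (15.5%). The part of any of these lists in the J-domain values was not tested.

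Dnaja1, the main cytosolic class A protein, was lower in emigrants with TCDD. It was 9.62 and 9.45 in emigrants TCDD and 10.23 and 9.99 in emigrants oil, against 10.19 and 10.42 in thymocytes TCDD and 10.08 and 10.62 in thymocytes oil. The emigrants TCDD arrays were the 2 lowest of the 8. The TCDD difference in emigrants was -0.57 (SE 0.22, adjusted p = 1.00), and -0.22 with the Treatment field of emigrants oil 1. In thymocytes it was -0.05, and the difference between the 2 responses was -0.52 (SE 0.31), and -0.17 with the field. A second bright probe set gave -0.43 in emigrants. It had the opposite sign for emigrants against thymocytes with oil (0.46, against -0.25 for the chosen set). Dnaja2, another cytosolic class A protein, was 6.78 and 6.77 in emigrants oil and 6.11 and 6.41 in thymocytes oil, a difference of 0.51 (SE 0.16). Its second probe set, of like brightness, gave -0.48, so the gene has no settled direction here.

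Class C proteins have little in common beyond the J domain. Dnajc15, which sits at the inner mitochondrial membrane, was 6.59 and 6.55 in emigrants TCDD and 5.74 and 6.28 in emigrants oil. The difference was 0.56 (SE 0.23, adjusted p = 1.00), 0.29 without emigrants oil replicate 1 and 0.01 with the Treatment field for that array. Dnajc11, of the mitochondrial membranes, was 5.64 and 5.54 in thymocytes TCDD and 6.05 and 6.11 in thymocytes oil, a difference of -0.49 (SE 0.15, adjusted p = 1.00). Dnajc27 was 4.62 and 4.58 in emigrants oil, both below their array medians, and 5.60 and 5.04 in thymocytes oil, with no overlap. Dnajc2, which acts at the ribosome with Hspa14, was 8.59 and 6.65 on the thymocytes oil arrays, a gap larger than any of its group differences. Dnajc28, of mitochondria, was 5.80 and 4.97 in thymocytes TCDD and 4.86 and 5.34 in thymocytes oil, and Dnajc12 lay between 5.14 and 5.69 on all arrays, both with overlap between these thymocyte groups. With TCDD in emigrants neither overlapped, Dnajc12 being higher by 0.24 (SE 0.20) and Dnajc28 at a difference of -0.29 (SE 0.30). Over the class, 10 of 22 had higher means with TCDD in thymocytes, 9 in emigrants, and 11 and 14 in emigrants against thymocytes with oil and with TCDD.

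**Figure D3:**
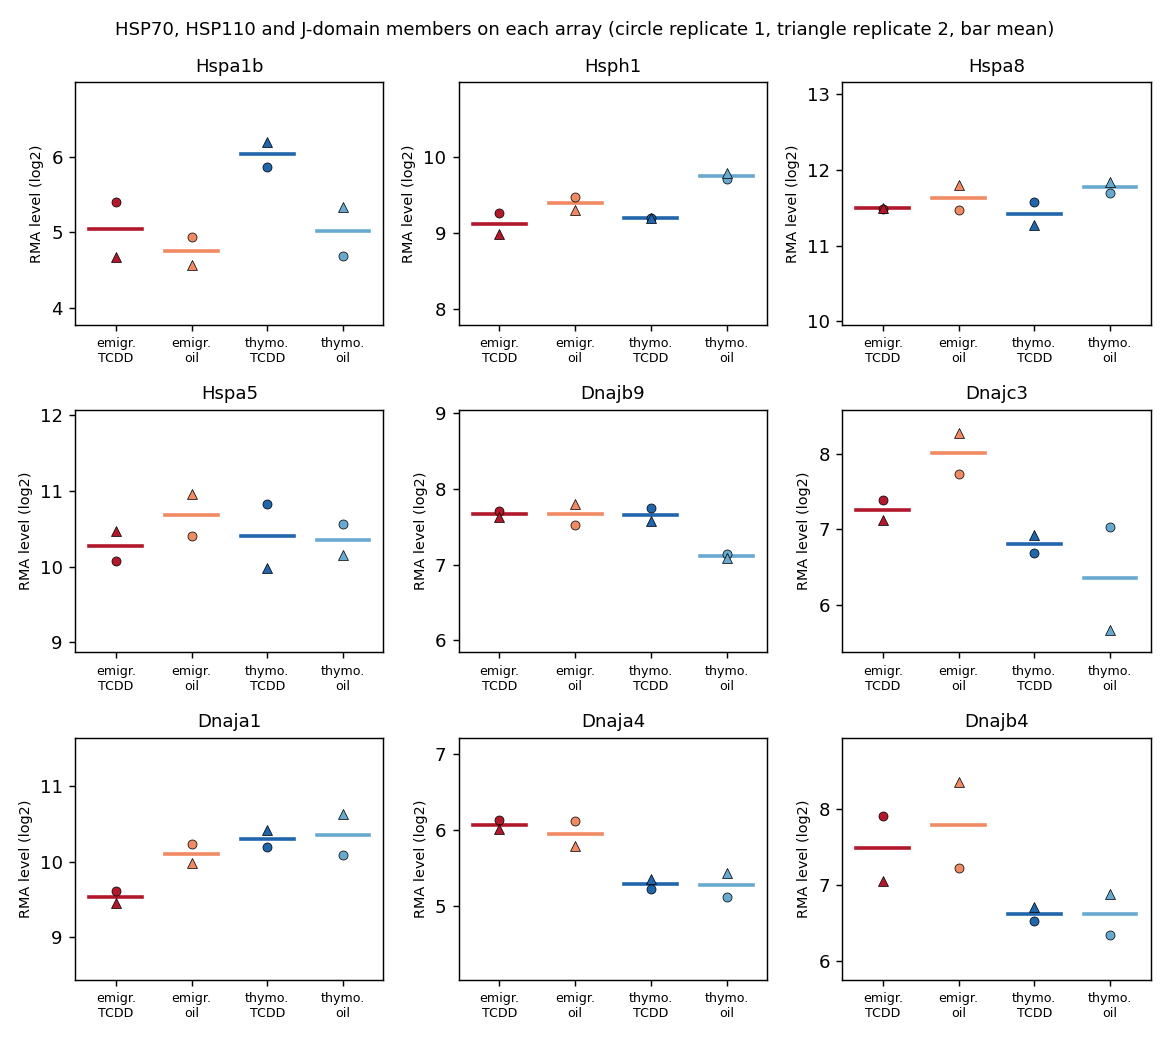
RMA log2 level of 9 HSP70, HSP110 and J-domain members on each array, in emigrants TCDD, emigrants oil, thymocytes TCDD and thymocytes oil from left to right, with each panel spanning the same number of log2 units. Hspa1b stands highest in thymocytes TCDD, Dnaja4 and Dnajb4 stand higher in all emigrant arrays, and Dnajc3 is highest in emigrants oil.

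Some members of the endoplasmic reticulum were grouped after their values had been seen, so their shared direction is a description. They were Hspa5 (BiP, the HSP70 of that compartment) and its J-domain partners Dnajb9, Dnajb11, Dnajc1, Dnajc3 and Dnajc10. With oil, 6 of 6 had higher means in emigrants than in thymocytes (median 0.39), 3 without overlap (19.8% of all genes). With TCDD 4 of 6 were higher than in thymocytes (median 0.05), 1 without overlap (22.1%). With TCDD in thymocytes 5 of 6 were higher than with oil (median 0.27), and in emigrants 4 of 6 were lower (median -0.17). These counts depend on the probe set read. For emigrants against thymocytes with oil Dnajc10 gave 0.16, and its other sets 0.03 and -0.30. With TCDD in emigrants it gave 0.14, and the others -0.39 and -0.27. Hspa5 gave 0.05 with TCDD in thymocytes, and its second set -0.13. The TCDD response in emigrants minus that in thymocytes was below 0 in 6 of 6 (median -0.39). With the Treatment field the medians were 0.61 for emigrants against thymocytes with oil, -0.43 for TCDD in emigrants and -0.62 for the difference of responses. The members above 0 then numbered 5 of 6, 1 of 6 and 1 of 6 in the same order.

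Dnajb9 (ERdj4), which binds BiP and IRE1, was 7.71 and 7.63 in emigrants TCDD and 7.53 and 7.80 in emigrants oil, against 7.74 and 7.57 in thymocytes TCDD and 7.14 and 7.08 in thymocytes oil. The thymocytes oil arrays lay below all the others. TCDD minus oil was 0.55 in thymocytes (SE 0.16, adjusted p = 1.00) and 0.00 in emigrants, and the difference between these responses was -0.55 (SE 0.22, adjusted p = 1.00). Emigrants oil were 0.56 above thymocytes oil (SE 0.16, adjusted p = 0.326). These 3 differences all rest on the same thymocytes oil arrays.

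Dnajc3 (p58IPK), an inhibitor of the kinase PERK and BiP partner, was 7.39 and 7.12 in emigrants TCDD and 7.73 and 8.28 in emigrants oil, against 6.69 and 6.92 in thymocytes TCDD and 7.03 and 5.68 in thymocytes oil. Emigrants oil were 1.65 above thymocytes oil (SE 0.44, 3.14-fold, adjusted p = 0.317), which was the largest difference of any member. Without thymocytes oil replicate 2 it was 0.97, and the next probe set by brightness gave 1.51. TCDD minus oil was -0.75 in emigrants (SE 0.44), with no overlap, and -0.47 without emigrants oil replicate 2. In thymocytes it was 0.45 (SE 0.44), and turned to -0.22 without thymocytes oil replicate 2. The difference of responses, -1.20 (SE 0.62), was -0.53 without that array. Hspa5, which shares the ER stress element with Dnajc3 in the sequences above, was 10.07 and 10.47 in emigrants TCDD and 10.41 and 10.95 in emigrants oil, against 10.82 and 9.99 in thymocytes TCDD and 10.56 and 10.15 in thymocytes oil. Its arrays overlapped in all 4 comparisons.

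In emigrants, markers of other cells differed with TCDD. Neutrophil markers had higher means in 11 of 11 cases (median 0.81), 3 without overlap (14.6% of all genes), and their median level was 8.24 and 5.56 in emigrants TCDD and 5.90 and 6.03 in emigrants oil. Emigrants TCDD replicate 1 was thus the bright array. With oil, 11 of 11 were lower in emigrants than in thymocytes (median -1.21), 9 without overlap (19.6% of all genes). NK cell markers were lower with TCDD in emigrants in 5 of 7 cases (median -0.55), 2 without overlap (10.1% of all genes). Erythroid markers had higher means in 8 of 9 (median 0.49), 2 without overlap (14.6% of all genes). Their median level was 6.14 and 4.74 in emigrants TCDD and 5.76 and 4.74 in emigrants oil, so replicate 1 was the brighter array with either treatment. Macrophage markers were higher in 7 of 8 (median 0.38), with 1 higher and 1 lower without overlap. B cell markers were higher in 5 of 8 (median 0.08), 2 without overlap. The coreceptors that the sort excludes were higher in 3 of 3 (median 0.86), 2 without overlap. Immediate early genes were higher in 11 of 15 (median 0.41), with 5 higher and 1 lower without overlap. The background was 14.6% higher and 10.1% lower. The part of these lists in the emigrant values of Dnaja1, Dnajc3, Dnajc15 and CCT was not tested.

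The mitochondrial chaperonin had small differences for its spread between arrays. Hspd1 (HSP60) was 11.04 and 11.10 in emigrants TCDD and 10.89 and 11.93 in emigrants oil, against 11.50 and 11.33 in thymocytes TCDD and 11.68 and 11.76 in thymocytes oil. Its differences ran from -0.35 to -0.30 in the 4 comparisons, each with an SE of 0.32. Thymocytes TCDD did not overlap thymocytes oil, and emigrants TCDD did not overlap thymocytes TCDD. Hspe1 (HSP10) was 10.41 and 9.99 in emigrants TCDD and 10.32 and 11.05 in emigrants oil, against 9.90 and 10.92 in thymocytes TCDD and 9.95 and 10.99 in thymocytes oil. The groups of Hspe1 overlapped in all 4 comparisons.

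Small heat shock proteins and heat shock factors were mostly dim. Hspb1 (HSP25 in mice), a holdase that binds unfolded protein without ATP, was 6.17 and 6.51 in emigrants TCDD and 6.26 and 6.13 in emigrants oil, against 6.01 and 6.39 in thymocytes TCDD and 6.25 and 6.53 in thymocytes oil, with overlap throughout. In thymocytes 6 of 6 small heat shock proteins had lower means with TCDD, none without overlap, with Hspb3 and Hspb8 below the medians on all arrays. Hspb11, whose protein is known as a part of the intraflagellar transport machinery, ran from 6.97 to 8.70 with emigrants TCDD replicate 2 as the lowest array. Hspbp1, an exchange factor of HSP70, was 4.44 and 4.55 in emigrants oil, both below their array medians, and 5.26 and 4.99 in thymocytes oil, with no overlap. Hsf2 lay between 2.76 and 3.12 and Hsf4 between 3.90 and 4.05, so neither was shown above background.

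**Figure D4:**
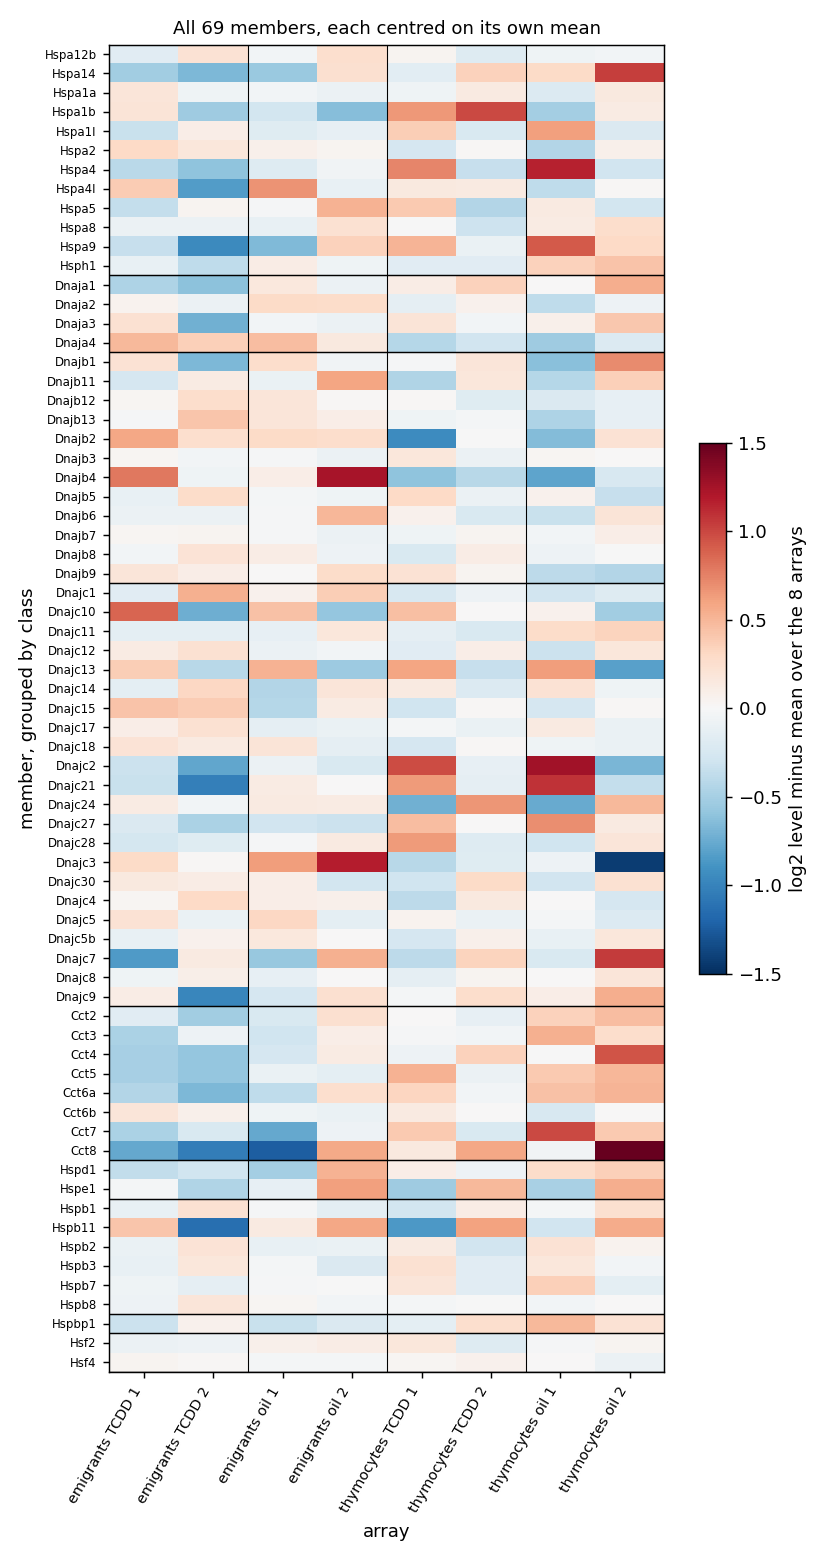
Log2 level of each of the 69 members minus its own mean over the 8 arrays, by class, with arrays in columns from emigrants TCDD to thymocytes oil. The 7 expressed CCT rows are blue in emigrants TCDD and red in thymocytes oil, except Cct4 and Cct8, just below their means in thymocytes oil replicate 1. Several rows such as Dnajc2, Dnajc13 and Dnajc24 differ more between replicates 1 and 2 than between groups.

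The partners of these chaperones were read from lists. Of HSP70 exchange factors and partners, 13 of 14 were measured, and 13 of 13 had lower means with TCDD in thymocytes (median -0.21, 6 without overlap beside 11.4% of all genes) and 13 of 13 in emigrants against thymocytes with oil (median -0.28, 6 without overlap beside 19.6%). With TCDD in emigrants 8 of 13 were lower. None passed the adjusted threshold. St13, the HSP70-interacting cochaperone Hip, differed by -0.89 between emigrants TCDD and emigrants oil (SE 0.25, and -0.54 without emigrants oil replicate 2) and by -1.25 between emigrants TCDD and thymocytes TCDD (SE 0.25). Bag5, another HSP70 cochaperone, differed by -0.58 with TCDD in thymocytes (SE 0.21).

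Among HSP90 and its co-chaperones, 15 of 20 were measured, with 11 of 15 lower with TCDD in thymocytes and 12 of 15 in emigrants. Without overlap, 5 were lower in thymocytes (11.4% of all genes) and 1 in emigrants (10.1%). Fkbp5, a co-chaperone of steroid receptors, was 7.98 and 8.09 in emigrants TCDD and 7.97 and 8.54 in emigrants oil, against 10.17 and 9.73 in thymocytes TCDD and 10.27 and 10.84 in thymocytes oil. Emigrants minus thymocytes was -1.92 with TCDD (adjusted p = 0.267) and -2.30 with oil (adjusted p = 0.184), with no overlap. Fkbp4 was 6.14 and 5.78 in thymocytes TCDD and 7.26 and 6.64 in thymocytes oil, a difference of -0.99 (SE 0.30). It differed by -1.74 between emigrants oil and thymocytes oil.

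Prefoldin and CCT partners, of which 10 of 11 were measured, had lower means in emigrants than in thymocytes in 9 of 10 cases with each treatment. Vbp1, a prefoldin subunit (prefoldin hands clients to CCT), was 8.61 and 8.65 in emigrants TCDD and 9.50 and 9.46 in emigrants oil, a difference of -0.85 (adjusted p = 1.00), and -0.54 with overlap under the Treatment field of emigrants oil 1. In thymocytes it was 10.01 and 9.60 with TCDD and 9.38 and 9.38 with oil, a difference of 0.43 (SE 0.17), and 0.22 without thymocytes TCDD replicate 1. The ER folding list had 9 of 20 higher in emigrants than in thymocytes with oil, from -1.69 (Edem1, a factor of ER-associated degradation) to 1.47, with 6 higher and 3 lower without overlap (19.8% and 19.6% of all genes). Xbp1, a transcription factor of the unfolded protein response, differed by -0.55 there. Of 10 mitochondrial proteostasis genes, 7 were lower with TCDD in thymocytes and 8 in emigrants against thymocytes with oil.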

How the data were processed

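Amplified RNA of sorted CD4-CD8- cells was measured on 8 Affymetrix mouse arrays, per the labels' protocols. The values the authors deposited are on the log2 scale (22690 probe sets). RMA is named, without a version, per the submitters' processing notes. RMA gives the arrays like distributions, so a shift common to most genes would not be seen, and it compresses differences of dim probe sets.

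Gene names come from the platform annotation and a RefSeq gene table; 20393 probe sets had 1 symbol, 691 several and 1606 none. Groups follow the sample titles. The main test was a two-sided limma fit (limma 3.58.1, R 4.3.3) of 4 group means to the 8 arrays, adjusted by Benjamini-Hochberg over 12394 genes. Checked on simulated arrays for TCDD in thymocytes, the code recovered changes of known sign. The check required recovery only of the largest planted changes, which were larger than any member difference here.

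The members and lists were chosen with earlier results of these data known. The text names the core members, up to 6 members per direction and comparison by p, and up to 2 genes per list. Members printed beside these (Dnajc2, Dnajc13, Dnajc24, Hspa14, Hspb11, the dim members and those of the endoplasmic reticulum) were chosen after their values were seen. Promoters came from RefSeq (GRCm38.p6). Alternatives were repeated quantile normalization, centring, brighter genes only, averaged or all probe sets, trend and robust priors, the 4 arrays compared, replicate blocks, the Treatment field and leaving out each array.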

Additional observations from a re-analysis of the deposited data

Results flagged for a closer look

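Vbp1, a prefoldin subunit outside the symbol rule, had opposite TCDD differences in the 2 sources, with no overlap between the arrays in either. It was 8.61 and 8.65 in emigrants TCDD and 9.50 and 9.46 in emigrants oil, a difference of -0.85, and 10.01 and 9.60 in thymocytes TCDD and 9.38 and 9.38 in thymocytes oil, a difference of 0.43. The response in emigrants minus that in thymocytes was -1.28 (SE 0.24, limma adjusted p = 1.00), which did not pass the threshold. When the emigrants oil 1 Treatment label replaces its title, the emigrant difference was -0.54, the emigrant arrays overlapped and the difference of responses was -0.96, so the opposite, non-overlapping pattern rests on the title of that array. No member gave such a pattern with the titles.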

How the results depend on the processing

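No member was called under any alternative, and the members' median moved by less than its SD between arrays except where given here. Of 138 named member differences, 49 turned sign under some alternative, and of the 43 of at least 0.5 in size 3 did (Cct8 with TCDD in either source, each without its oil replicate 2, and Hspa4 in emigrants against thymocytes with oil without thymocytes oil replicate 1).

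With brighter genes only (45 members of 6197 genes), members higher without overlap numbered 1 for TCDD in thymocytes (10.9% of these genes), 3 for TCDD in emigrants (11.5%) and 7 for emigrants against thymocytes with TCDD (21.4%). Those lower numbered 9 in emigrants against thymocytes with oil (23.2%) and 12 with TCDD in emigrants (26.7% of the 45, and 11.7% of these genes), and the members' median there was -0.30. With the Treatment field for emigrants oil 1, which sets 3 arrays against 1, 16 members were higher and 26 lower without overlap with TCDD in emigrants (29.5% and 20.8% of all genes), 19 higher and 22 lower in emigrants against thymocytes with oil (30.4% and 34.2%), and the CCT median there was -0.30. That field gave calls among all genes in every comparison except TCDD in thymocytes, where the titles gave 0 calls throughout. Leaving out an emigrant array gave calls among all genes as well. With all 8 arrays under their titles, repeated quantile normalization called 2 genes in emigrants against thymocytes with TCDD. Trend and robust priors called 1 gene there, and averaged probe sets 1 gene in emigrants against thymocytes with oil.

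Leaving out each array in turn gave, without overlap, 6 to 21 members higher (9.78% to 33.6% of all genes) and 8 to 31 lower (11.4% to 33.8%) with TCDD in thymocytes, and 8 to 22 higher (14.6% to 42.7%) and 15 to 32 lower (10.1% to 30%) with TCDD in emigrants. It gave 11 to 27 higher (19.8% to 40.2%) and 14 to 32 lower (19.6% to 37.6%) in emigrants against thymocytes with oil, and 11 to 25 higher (22.1% to 44.0%) and 15 to 29 lower (15.5% to 32.0%) with TCDD. A group left with 1 array overlaps less by construction. The CCT median ran from -0.58 to -0.12 for TCDD in emigrants, from -0.72 to -0.30 and from -0.74 to -0.45 for emigrants against thymocytes with oil and with TCDD, and from -0.20 to 0.34 for the difference of responses.

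In this balanced design a replicate block cannot move a difference of means (the CCT median for TCDD in thymocytes is -0.42 by construction). It called 0 members, and a replicate block within each source called 0 members and 1 gene in all there. The labels do not say that replicate numbers pair arrays. Deviations of same-numbered arrays correlated at 0.76 within thymocytes, 0.50 within emigrants and -0.10 to 0.11 between the sources over all genes.

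Other bright probe sets existed for 20 members and had the opposite sign in 6 to 8 of them per comparison. With 2 arrays a group, a median residual SD of 0.223 and no signal over background per probe used here, small and dim differences could not be resolved.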

Other observations

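Opposite TCDD responses in the 2 sources, with no overlap between arrays in either, were found for 0 of the 69 members and for 314 of all 12394 genes (2.53%). Hsp90b1, the HSP90 of the endoplasmic reticulum, was 9.13 and 5.36 in emigrants TCDD and 9.36 and 5.26 in emigrants oil, against 5.36 and 8.42 in thymocytes TCDD and 5.81 and 5.02 in thymocytes oil. In 3 of the 4 groups its 2 arrays differed by more than 3 log2 units, and it was named after its values were seen.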
